A study of Mus musculus with 12 samples.

Results

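The genes described here are 10 that build and maintain the blood vessels of the retina, taken as the rows of the deposited expression tables that carry the symbols Fzd4, Lrp5, Tspan12, Vegfa, Kdr, Flt1, Tek, Cldn5, Pecam1 and Cdh5. They are 10 of 37991 genes, and each symbol matched 1 row. All 10 are autosomal and carry a known exonic polymorphism between the strains, so each could be read as a level, as a difference between strains and as a difference between alleles. Polyadenylated RNA of whole retina from male mice aged 8 weeks was sequenced in 12 libraries, 3 for each of 4 genotypes, and each library pooled 6 to 8 retinas. The genotypes were F0 C57BL/6J (the reference inbred strain), F0 Cast/EiJ (a wild-derived inbred strain), F1 B6xCast (C57BL/6J father and Cast/EiJ mother) and F1 CastxB6 (Cast/EiJ father and C57BL/6J mother), with no treatment or engineered allele in any group. Since the retina was not sorted, endothelial RNA is a small share of the RNA measured, and fewer vascular cells cannot be told apart from less RNA per cell.

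Retinal vessels grow and keep their barrier under several signals. Norrin, a ligand secreted by Müller glia, binds the receptor Fzd4 with the co-receptor Lrp5 and the tetraspanin Tspan12 on endothelial cells, and the complex stabilizes β-catenin. Loss of any of these components leaves the retina poorly vascularized, as in familial exudative vitreoretinopathy and Norrie disease. Vegfa, made by glia and neurons, acts on endothelial cells through Kdr (VEGFR2), while Flt1 (VEGFR1) binds the ligand tightly and signals weakly. Tek (Tie2) is the receptor for angiopoietins, which steady mature vessels. Cldn5 forms the tight junctions of the blood-retinal barrier, Cdh5 (VE-cadherin) the adherens junctions, and Pecam1 (CD31) is an adhesion molecule at endothelial contacts. Kdr is also known to be expressed outside vessels in the neural retina.

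The positions of the genes in the deposited tables are on build NCBI37, and all are annotated as protein coding. The Norrin receptor genes are Fzd4 (ENSMUSG00000049791, chr7:96552876-96558620, plus strand), Lrp5 (ENSMUSG00000024913, chr19:3584828-3686564, minus strand) and Tspan12 (ENSMUSG00000029669, chr6:21721395-21802515, minus strand). The VEGF genes are Vegfa (ENSMUSG00000023951, chr17:46153942-46169326, minus strand), Kdr (ENSMUSG00000062960, chr5:76328852-76374483, minus strand) and Flt1 (ENSMUSG00000029648, chr5:148373180-148537587, minus strand). The others are Tek (ENSMUSG00000006386, chr4:94405980-94541667, plus strand), Cldn5 (ENSMUSG00000041378, chr16:18776940-18778353, plus strand), Pecam1 (ENSMUSG00000020717, chr11:106515531-106611942, minus strand) and Cdh5 (ENSMUSG00000031871, chr8:106625525-106668402, plus strand). In the GENCODE M1 annotation of that build, Fzd4, Lrp5, Cldn5 and Cdh5 have 1 transcript each, whereas Vegfa has 14, of which 9 are protein coding.

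Promoter sequence from RefSeq (build GRCm38.p6) was found for 7 of the 10 genes, all but Lrp5, Pecam1 and Cdh5. The 250 bases before the annotated start are printed, 5′ to 3′ on the gene's strand, for Tspan12, whose alleles differed in the hybrids, and for Vegfa, Kdr and Cldn5, whose strain and allelic differences diverged. Capitals mark matches on either strand to GGGCGG (the GC box), TATAAA (the TATA box), CCGGAA (an ETS core) or ACGTG (a hypoxia response core). The sequence is that of the reference strain, C57BL/6J, and the matches printed do not overlap.
Tspan12 (chr6:21852534-21852783, minus strand): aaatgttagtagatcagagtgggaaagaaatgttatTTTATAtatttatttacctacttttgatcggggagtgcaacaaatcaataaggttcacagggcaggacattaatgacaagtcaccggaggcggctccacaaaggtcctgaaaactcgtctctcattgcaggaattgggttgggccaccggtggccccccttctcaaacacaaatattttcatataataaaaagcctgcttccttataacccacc
Vegfa (chr17:46032378-46032627, minus strand): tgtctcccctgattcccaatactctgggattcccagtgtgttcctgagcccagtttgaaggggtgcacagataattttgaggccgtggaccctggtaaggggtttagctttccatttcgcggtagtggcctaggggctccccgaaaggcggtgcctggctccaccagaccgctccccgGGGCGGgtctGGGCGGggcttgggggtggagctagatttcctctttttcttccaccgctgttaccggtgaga
Kdr (chr5:75978456-75978705, minus strand): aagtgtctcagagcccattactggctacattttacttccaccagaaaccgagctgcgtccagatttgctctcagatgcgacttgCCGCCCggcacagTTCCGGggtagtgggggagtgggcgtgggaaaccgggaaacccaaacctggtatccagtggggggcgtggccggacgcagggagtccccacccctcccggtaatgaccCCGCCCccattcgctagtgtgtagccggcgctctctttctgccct
Cldn5 (chr16:18776597-18776846, plus strand): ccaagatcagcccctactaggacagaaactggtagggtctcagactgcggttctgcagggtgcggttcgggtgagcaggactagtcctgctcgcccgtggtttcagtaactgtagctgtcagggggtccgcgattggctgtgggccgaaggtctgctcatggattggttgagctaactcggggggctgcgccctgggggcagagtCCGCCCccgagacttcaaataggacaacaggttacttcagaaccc
Kdr had 2 matches to GGGCGG and 1 to CCGGAA, the printed Vegfa promoter 2 to GGGCGG, and Cldn5 1 to GGGCGG. The 250 bases before a second Vegfa start in RefSeq (chr17:46025164-46025413, minus strand, not printed) had 1 GGGCGG and 1 ACGTG. They lie downstream of the first start, inside the gene, so neither match is in sequence upstream of Vegfa. Tspan12 had no GGGCGG and 1 match to TATAAA, first found at position -214 from the start, and its GC content of 42.0% was below that of Vegfa (59.2%), Kdr (61.6%) and Cldn5 (59.6%), against a median of 52.4% over 32851 mouse promoters. Of those promoters, 32.7% held GGGCGG, 12.4% TATAAA, 12.0% CCGGAA and 16.6% ACGTG. A match is a description of the letters and no measure of binding.

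Depth was 8158534 to 12363291 unique hits per library, which are read pairs that only 1 gene, and in F1 only 1 of its alleles, could have given. A second sequencing lane was run for F1 libraries only, so lane and generation cannot be told apart. The retina was as labelled: the 11 retinal neuron genes checked were all expressed, with a summed level of 13303 to 14842 FPKM (fragments scaled by transcript length and library depth) in every library. Differences were tested on count equivalents, the read numbers that MMSEQ assigns to a gene after normalization, as log2 of the value plus 1 with limma and Benjamini-Hochberg adjustment over all genes tested, with calls made where the adjusted p was below 0.05. Libraries of a group are separate pools of retinas, so the F0 p-values measure the spread between pools. The allelic, trans and parent-of-origin p-values use a spread estimated jointly from the F0 libraries and both alleles of the F1 libraries. That joint spread is not the spread of the allelic ratio alone.

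Vegfa was the highest of the 10 genes and Cdh5 the lowest. Levels were compared per length, as the deposited log expression taken back to units roughly equal to FPKM, with the mean of both alleles in F1. Over the 12 libraries Vegfa had a median of 63.0 FPKM (range 51.9 to 86.2), Kdr 23.1 (14.6 to 32.6) and Flt1 12.3 (9.82 to 14.1), and the ranges of these 3 did not overlap each other or that of any gene below. Kdr thus exceeded Flt1, the other VEGF receptor, in 12 of 12 libraries. The Norrin receptor genes lay close together, with medians of 2.43 FPKM for Fzd4 (2.02 to 2.88), 2.30 for Tspan12 (1.90 to 3.20) and 1.79 for Lrp5 (1.56 to 2.39). Cldn5 fell among them at 2.33 FPKM (1.55 to 4.0). Pecam1 followed at 1.53 FPKM (0.874 to 2.32), then Tek at 0.867 (0.576 to 1.04) and Cdh5 at 0.733 (0.436 to 1.17). From Fzd4 down, every neighbour in this order overlapped the next in range, so this order is not fixed by the data, although Tspan12 exceeded Lrp5 and Pecam1 exceeded Tek in 12 of 12 libraries.

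**Figure D1:**
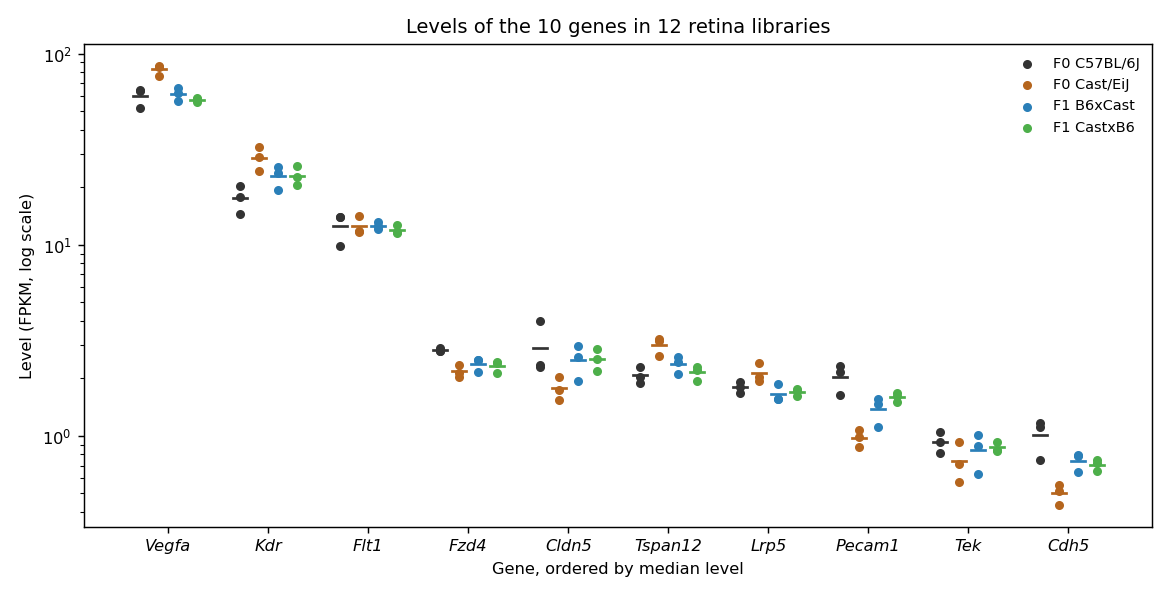
Level of each gene in FPKM (log axis), 1 point per library and a bar at the group mean, for 3 libraries of each of 4 genotypes; F1 points are the mean of both alleles. Vegfa, Kdr and Flt1 are set apart from the other 7 genes, whose ranges overlap from neighbour to neighbour.

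Between the F0 retinas, Cast/EiJ had more Vegfa and Kdr and less Fzd4, Pecam1 and Cdh5 than C57BL/6J. These 5 of 10 genes were called, 2 higher and 3 lower in Cast/EiJ, where 33.8% of the 14452 genes tested were called. The members' median log2 difference (Cast/EiJ over C57BL/6J) was -0.15, against 0.03 over all genes, and the median size of the difference, whatever its sign, was 0.50 against 0.26. The same question asked within the hybrids, where both alleles share 1 nucleus, gave 2 called genes of 10, Tspan12 and Pecam1, where 47.0% of 13414 genes were called. The F0 and the allelic difference differed from each other, which is called the trans component here, for 4 of 10 genes (Vegfa, Kdr, Cldn5 and Cdh5), where 14.0% of the 13414 genes were called. The trans component uses the F0 libraries again, so it is no independent repeat of the F0 comparison.

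**Figure D2:**
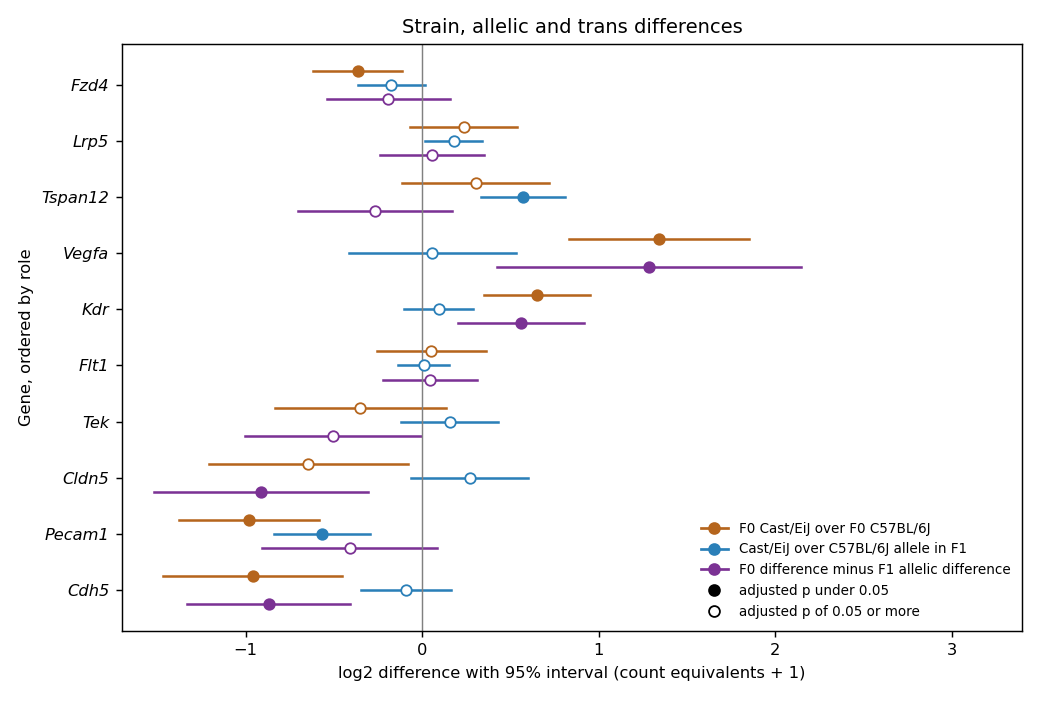
The log2 difference of each gene with its 95% interval, between the F0 strains (Cast/EiJ over C57BL/6J, 3 libraries each), between the alleles in 6 F1 libraries, and the F0 minus the allelic difference; filled points have an adjusted p under 0.05. Pecam1 is negative in F0 and between alleles, Tspan12 is called only between alleles, and Vegfa, Kdr, Cldn5 and Cdh5 have a filled trans component.

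Among the Norrin receptor genes, Fzd4, the Norrin-binding receptor, was lower in F0 Cast/EiJ. It had 193, 196 and 201 count equivalents in the 3 F0 C57BL/6J libraries and 164, 151 and 143 in the 3 F0 Cast/EiJ libraries. The groups did not overlap, and the log2 difference was -0.37 ± 0.11 (SE, adjusted p = 0.033 by limma). This call was lost without F0 C57BL/6J replicate 1, 2 or 3 or F0 Cast/EiJ replicate 2 or 3, with an adjusted p of up to 0.103, while the difference itself stayed between -0.42 and -0.32. It was also lost on the deposited log expression (adjusted p = 0.064) and with DESeq2 (adjusted p = 0.063). Between the alleles, Cast/EiJ was the lower in 5 of 6 F1 libraries, with a log2 difference of -0.17 ± 0.09 (adjusted p = 0.13), which was not called. Without F1 B6xCast replicate 3, the library where the Cast/EiJ allele was the higher, it was -0.28 (adjusted p = 0.0094 by limma). Without F1 B6xCast replicate 2 it was -0.076 (adjusted p = 0.54 by limma), so the value depends on single libraries.

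Tspan12, which strengthens signalling from the Norrin and Fzd4 complex, had the clearest difference between alleles. In F1 B6xCast the Cast/EiJ allele had 129, 116 and 111 count equivalents and the C57BL/6J allele 74.6, 104 and 81.3. In F1 CastxB6 the Cast/EiJ allele had 125, 120 and 115 and the C57BL/6J allele 75.9, 88.1 and 61.4. The Cast/EiJ allele was thus higher in 6 of 6 libraries, its lowest value (111) was above the highest of the other allele (104), and the log2 difference was 0.57 ± 0.11 (adjusted p = 0.000505). It was called within each cross, at 0.46 (adjusted p = 0.034) in F1 B6xCast and 0.68 (adjusted p = 0.0032) in F1 CastxB6. In unique hits the Cast/EiJ allele took 314 against 210, a share of 60.4% ± 3.43 (SD, n = 6 libraries). Between the F0 strains the groups overlapped, with 87.8, 99.7 and 94.0 count equivalents in C57BL/6J against 142, 90.0 and 122 in Cast/EiJ. The log2 difference of 0.30 ± 0.18 was not called (adjusted p = 0.23). Leaving out 1 library moved it to between 0.16 and 0.49. On the deposited log expression it was 0.52 (adjusted p = 0.039) and in an edgeR test of unique hits 0.45 (adjusted p = 0.042), but with weights on the log expression it was 0.51 and not called (adjusted p = 0.136), so the F0 call for Tspan12 depends on the measure and the fit. The trans component of Tspan12 was -0.27 ± 0.21 (adjusted p = 0.43), and -0.41 to -0.086 without 1 library.

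Lrp5, the co-receptor, was not called in any of the comparisons over both crosses. The F0 difference was 0.24 ± 0.13 on the log2 scale (adjusted p = 0.21), with 165 to 194 count equivalents in C57BL/6J and 188 to 246 in Cast/EiJ, which overlap. Without 1 library it was 0.13 to 0.32. The allelic difference was 0.18 ± 0.08 (adjusted p = 0.063), and within F1 B6xCast it was 0.34 (adjusted p = 0.021) against 0.01 (adjusted p = 0.93) within F1 CastxB6. The difference between the crosses was not called as a parent-of-origin difference (0.17, adjusted p = 0.75). Allele-specific depth was low for Lrp5, with 17 to 51 unique hits per allele and library.

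The ligand of this receptor, Norrin, is encoded by Ndp (ENSMUSG00000040138) on the X chromosome, so it entered no test and is given by its level. F0 C57BL/6J had 66.3, 57.8 and 77.1 count equivalents and F0 Cast/EiJ 87.7, 92.6 and 98.4, which did not overlap. In the F1 males the maternal allele had 182, 209 and 225 count equivalents in F1 B6xCast (Cast/EiJ mother) and 175, 177 and 160 in F1 CastxB6 (C57BL/6J mother), which did not overlap either. The paternal allele had 0 of 620 unique hits over the 6 libraries, which allows a share of up to 0.484% (counting error only). Each F1 allele was normalized to the scale of a whole F0 library, so F0 and F1 count equivalents of this X-linked gene are not set against each other.

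Of the other 19 genes of the Norrin and β-catenin list, Ndp included, 18 were tested between the F0 strains. None was called by limma, where 33.8% of all genes were called (median log2 difference 0.14). Between the alleles 3 of 17 were called higher and 4 lower on the Cast/EiJ allele, where 47.0% of all genes were called.

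The VEGF ligand Vegfa was higher in F0 Cast/EiJ under every measure, but by how much depended on the measure. It had 1450, 730 and 767 count equivalents in F0 C57BL/6J and 2550, 2280 and 2280 in F0 Cast/EiJ. The groups did not overlap, and the log2 difference was 1.34 ± 0.23 (2.54-fold, adjusted p = 0.0021). In FPKM the same libraries had 64.6, 63.6 and 51.9 against 76.6, 86.2 and 85.5, which do not overlap and give 0.47 on the log2 scale (adjusted p = 0.017). In unique hits they had 1620, 1596 and 1126 against 1632, 1546 and 1893, from shallower Cast/EiJ libraries, and edgeR, which scales by depth, gave 0.53 (adjusted p = 0.0015). The higher level in Cast/EiJ, after scaling by depth, held in all 3 measures, and the 2.54-fold size held only in count equivalents, where F0 C57BL/6J replicate 1 stood apart from its group. Within groups the SD of log2 values was 0.39 in count equivalents, 0.18 in depth-scaled unique hits and 0.11 in FPKM, and Vegfa was the member with the largest such spread in count equivalents. Count equivalents sum over transcripts of different lengths while FPKM divides by length. Whether the 14 annotated transcripts of Vegfa bear on the gap between these measures was not tested.

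Between the Vegfa alleles no difference was called. The C57BL/6J allele had 594 to 2070 count equivalents in the 6 F1 libraries with a median of 1385, and the Cast/EiJ allele 723 to 1710 with a median of 1430, so they overlapped widely. The log2 difference was 0.06 ± 0.22 (adjusted p = 0.86). In F1 B6xCast replicate 2 it was 1.36, against -0.51 to 0.23 in the other libraries. Unique hits put the Cast/EiJ allele lower in that library (547 against 587), so the measures disagree there. In unique hits the Cast/EiJ allele took 50.4% ± 1.96 (SD, n = 6), with 2985 hits against 2969. The trans component was 1.29 ± 0.41 (adjusted p = 0.044) in count equivalents, 0.40 (adjusted p = 0.053) on the deposited log expression and 0.48 (adjusted p = 0.034) in unique hits. In FPKM the F1 libraries (56.0 to 65.8) lay with F0 C57BL/6J (51.9 to 64.6) and under every F0 Cast/EiJ library (76.6 to 86.2).

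**Figure D3:**
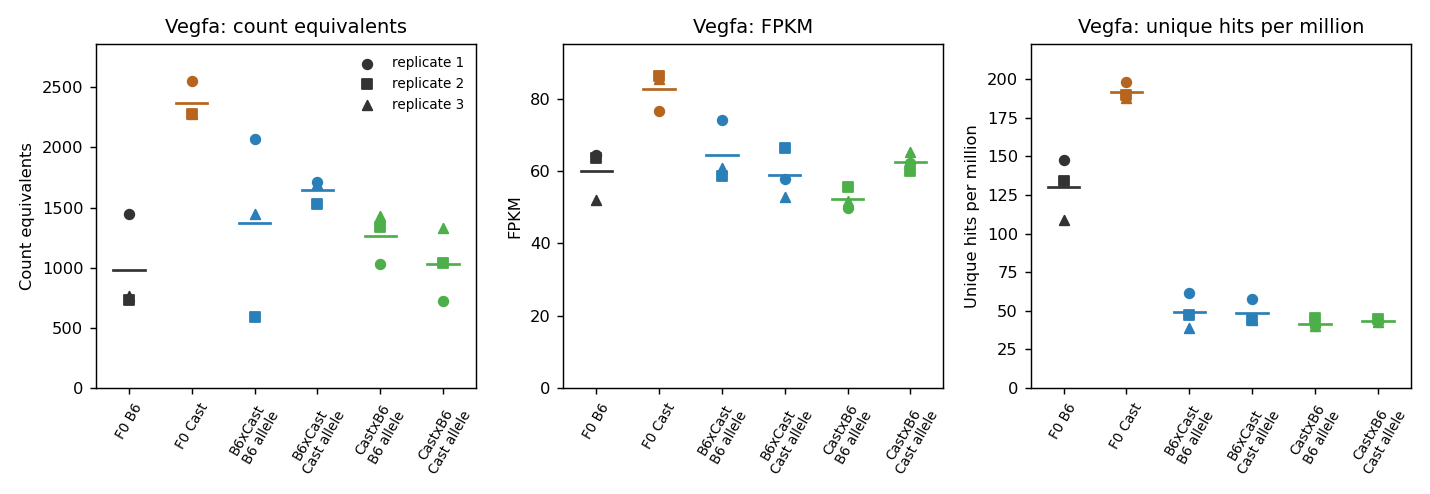
Vegfa in count equivalents, FPKM and unique hits scaled to the library's depth, 1 point per library (marker shape gives the replicate) with a bar at the mean; F1 values are per allele, and F1 unique hits count only allele-specific read pairs, so they are set against each other and not against F0. F0 Cast/EiJ is above F0 C57BL/6J in all 3 panels, by most in count equivalents, where replicates also spread most.

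Kdr, the main signalling receptor for Vegfa, was higher in F0 Cast/EiJ by 0.65 ± 0.13 on the log2 scale (1.57-fold, adjusted p = 0.0056). It had 1640, 2330 and 2010 count equivalents in F0 C57BL/6J and 2740, 3120 and 3490 in F0 Cast/EiJ, without overlap. Between alleles the values were close: the Cast/EiJ allele was higher in 6 of 6 F1 libraries (5 of 6 in unique hits), but by 0.015 to 0.18 on the log2 scale. The mean of 0.09 ± 0.09 was not called (adjusted p = 0.43). Its SE comes from the fit shared with the F0 libraries, while the 6 log2 differences had an SD of 0.06. The missing call therefore does not show that the alleles were even. With 2464 allele-specific unique hits per library on average, the Cast/EiJ share was 51.0% ± 1.22 (SD, n = 6), and among the 10 genes only Flt1 had a smaller SD (1.17). The trans component was 0.56 ± 0.17 (adjusted p = 0.036), and with edgeR on unique hits it was 0.52 and lost its call (adjusted p = 0.052). In FPKM the F1 libraries had 19.4 to 25.9, between the F0 means of 17.5 ± 2.90 in C57BL/6J and 28.5 ± 4.16 in Cast/EiJ (SD, n = 3).

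Flt1, the decoy-like VEGF receptor, showed no called difference. It had 1200, 1680 and 1740 count equivalents in F0 C57BL/6J and 1510, 1500 and 1730 in F0 Cast/EiJ, and the F0 difference was 0.05 on the log2 scale (95% interval -0.26 to 0.36, adjusted p = 0.79). The allelic difference was 0.01 (-0.14 to 0.15, adjusted p = 0.93), with 5158 Cast/EiJ against 5226 C57BL/6J unique hits. At this depth the allelic interval for Flt1 was the narrowest of the 10 genes. Kdr and Flt1, both VEGF receptors on chromosome 5, thus had different values in the F0 comparison, although the difference between these genes was not tested.

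Among 11 other VEGF genes, 9 were tested in F0, and 1 was called higher and 3 lower in Cast/EiJ (median -0.0011), where 33.8% of all genes were called. Flt4 (VEGFR3, the receptor for Vegfc) was lower by -1.15 ± 0.16 (adjusted p = 0.00064), with means of 100 ± 8.66 count equivalents in C57BL/6J and 44.4 ± 0.436 in Cast/EiJ (SD, n = 3). Plxnd1, a semaphorin receptor of endothelial cells, was lower by -0.58 ± 0.16 (adjusted p = 0.023), and Vegfb was higher by 0.40 ± 0.11 (adjusted p = 0.022).

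Tek, the angiopoietin receptor, was not called between strains, nor between alleles over both crosses. It had 66.5, 93.3 and 80.6 count equivalents in F0 C57BL/6J and 51.0, 59.3 and 79.2 in F0 Cast/EiJ, which overlap. The log2 difference was -0.35 ± 0.21 (adjusted p = 0.24), and -0.52 to -0.21 without 1 library. Between alleles it turned with the cross, at 0.49 (adjusted p = 0.0475) within F1 B6xCast, which was called, and -0.18 (adjusted p = 0.50) within F1 CastxB6. The Cast/EiJ allele was the higher in F1 B6xCast (58.6, 82.3 and 79.8 against 49.3, 65.8 and 41.9 count equivalents) and the lower in F1 CastxB6 (63.3, 75.1 and 66.6 against 76.0, 80.2 and 75.9). The maternal allele of Tek was thus higher in 6 of 6 libraries, and in 6 of 6 by unique hits. The maternal over paternal difference was 0.34 ± 0.13 on the log2 scale and did not pass over all genes (adjusted p = 0.59 by limma). Of all 10 genes, 0 were called for parent of origin, where 0.492% of 13414 genes were called; 2 (Tek and Lrp5) had an unadjusted p under 0.05, and edgeR on unique hits called 0. Of 5 other angiopoietin and Tie genes, 4 were tested in F0 and 1 was called, where 33.8% of all genes were called. It was Ptprb (the phosphatase that acts on Tek), lower in Cast/EiJ by -0.69 ± 0.18 (adjusted p = 0.020).

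Pecam1, the adhesion molecule, was the only member called lower in Cast/EiJ both in F0 and between the alleles. F0 C57BL/6J had 101, 144 and 135 count equivalents and F0 Cast/EiJ 67.3, 57.3 and 64.8. The groups did not overlap, and the log2 difference was -0.98 ± 0.18 (1.97-fold higher in C57BL/6J, adjusted p = 0.0030). In F1 B6xCast the C57BL/6J allele had 91.3, 105 and 120 count equivalents and the Cast/EiJ allele 42.9, 82.3 and 58.3, and in F1 CastxB6 they had 103, 118 and 99.0 against 79.7, 83.7 and 91.6. The Cast/EiJ allele was lower in 6 of 6 libraries, by -0.57 ± 0.13 (adjusted p = 0.0016), and held 38.7% ± 5.95 of the unique hits (SD, n = 6). The difference was -0.82 (adjusted p = 0.0022) within F1 B6xCast but -0.32 (adjusted p = 0.19) within F1 CastxB6, so it was called within the first cross and not within the second. The 2 crosses were not called as different (parent-of-origin difference -0.25, adjusted p = 0.84), and neither was the trans component (-0.41 ± 0.23, adjusted p = 0.27).

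Cdh5, the adherens junction cadherin, was lower in F0 Cast/EiJ by a similar size, but its alleles were even. F0 C57BL/6J had 56.2, 84.8 and 88.3 count equivalents and F0 Cast/EiJ 33, 42.4 and 39.4, without overlap, and the log2 difference was -0.96 ± 0.22 (1.94-fold higher in C57BL/6J, adjusted p = 0.011). The allelic difference was -0.09 ± 0.12 (adjusted p = 0.57), with 268 Cast/EiJ against 285 C57BL/6J unique hits and the Cast/EiJ allele the lower in 4 of 6 libraries. The trans component of -0.87 ± 0.22 (adjusted p = 0.013) was called with each of the 12 libraries left out in turn. In FPKM the F1 libraries had 0.646 to 0.791, above every F0 Cast/EiJ library (0.436 to 0.554).

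Cldn5, the tight junction claudin, had 59.5, 101 and 57.7 count equivalents in F0 C57BL/6J and 43.7, 39.2 and 51.8 in F0 Cast/EiJ. The groups did not overlap, yet the spread in C57BL/6J was wide and the log2 difference of -0.64 ± 0.25 was not called (adjusted p = 0.074); edgeR on unique hits gave -0.71 (adjusted p = 0.042). Without F0 C57BL/6J replicate 2, the library at 101, it was -0.39. The Cast/EiJ allele was the higher in 5 of 6 F1 libraries, by 0.27 ± 0.16 (adjusted p = 0.17), opposite in sign to the F0 difference, and the trans component was -0.91 ± 0.29 (adjusted p = 0.042).

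The trans calls other than Cdh5 were near the threshold. Leaving out 1 library ended the call for Vegfa in 10 of 12 cases (all but F0 C57BL/6J replicate 1 and F1 B6xCast replicate 2) and for Cldn5 in 7 of 12 (F0 C57BL/6J replicate 2, F0 Cast/EiJ replicates 1 and 2, F1 B6xCast replicate 3 and the 3 F1 CastxB6 libraries). For Kdr it did so in 7 of 12 (F0 C57BL/6J replicates 1 and 3, F0 Cast/EiJ replicates 2 and 3, F1 B6xCast replicate 2 and F1 CastxB6 replicates 2 and 3). The values stayed between 1.11 and 1.60 for Vegfa, -1.05 and -0.66 for Cldn5, and 0.42 and 0.68 for Kdr, with adjusted p of up to 0.128, 0.145 and 0.109. Without 1 library, 1 to 3 of the 10 genes were called.

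Of 21 genes on the endothelial list outside the members, 20 were tested between the F0 strains, 0 were called higher in Cast/EiJ, 7 lower and 13 not called, a share near the 33.8% called over all genes. The median log2 difference was -0.29 against 0.03 over all genes. Erg, an endothelial transcription factor, was lower by -1.01 ± 0.27 (adjusted p = 0.018), Nos3, the endothelial nitric oxide synthase, by -0.98 ± 0.24 (adjusted p = 0.012), and Gpr116, an adhesion receptor, by -0.92 ± 0.16 (adjusted p = 0.0026). Between the alleles 2 of 19 were called higher and 4 lower (median -0.05), where 47.0% of all genes were called, and 3 of 19 had a called trans component, all negative, where 14.0% were. Of 12 genes of mural cells, the pericytes and smooth muscle around vessels, 11 were tested, and 1 was called higher and 3 lower in F0 Cast/EiJ (median -0.44), again near the 33.8% of all genes. Rgs5, a pericyte regulator of G-protein signalling, was lower by -1.62 ± 0.10 with 841 ± 60.9 count equivalents in C57BL/6J against 273 ± 27.5 in Cast/EiJ (SD, n = 3), Tagln, a smooth muscle protein, by -1.09 ± 0.25 (adjusted p = 0.0094) and Notch3, a receptor of mural cells, by -0.84 ± 0.19 (adjusted p = 0.0092). The gene called higher, named after its values were seen, was Vtn, which encodes vitronectin, at 0.53 ± 0.07 (adjusted p = 0.00062). It had 9577 count equivalents in C57BL/6J against 13800 in Cast/EiJ, far above every other gene of the list (Rgs5, at 841, was next in C57BL/6J). Which cells of the unsorted retina gave the Vtn RNA was not tested, so its value need not describe mural cells.

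**Figure D4:**
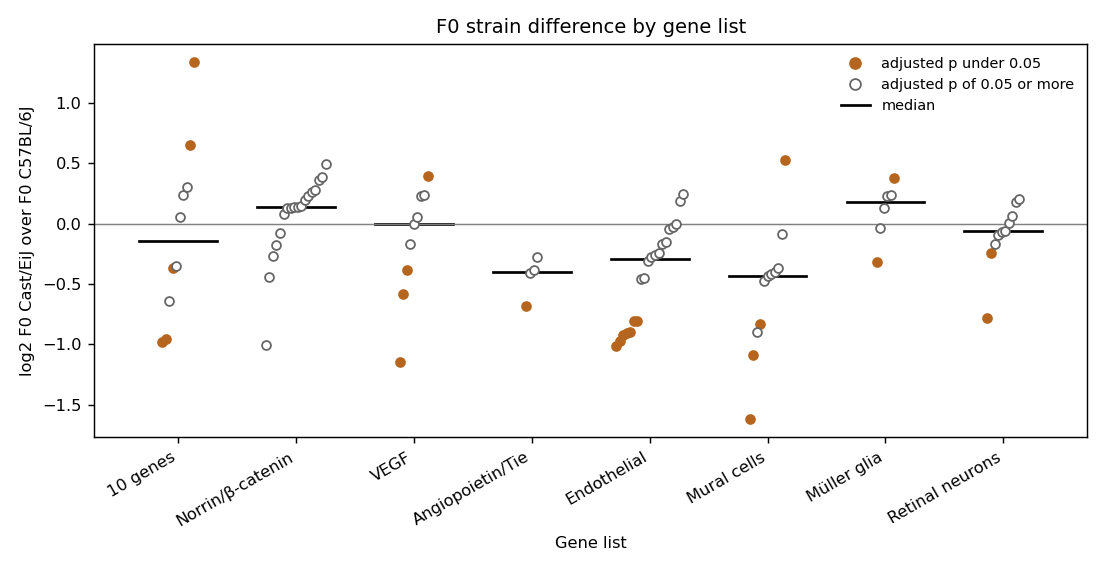
F0 log2 difference (Cast/EiJ over C57BL/6J) of every tested gene, 1 point per gene in each list, filled where the adjusted p is under 0.05, with a bar at the list's median. Of the endothelial genes 7 of 20 are filled and all of these lie below 0. None of 18 Norrin and β-catenin genes is filled, and the 10 members lie on both sides. Over all genes tested 33.8% were called.

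Genes of other cells in and around vessels were measured in the same libraries, and their part in the differences of the 10 genes was not tested. The summed level of 6 erythroid genes was 76.1 to 115 FPKM in F0 C57BL/6J and 35.5 to 58.0 in F0 Cast/EiJ, and 3 of the 4 tested were called lower. Most of that gap was Hba-a2 (37.7 against 1.30 FPKM), whereas its near-identical paralog Hba-a1 had 29.95 against 36.0 FPKM, and reads shared between such copies make both values uncertain. For 6 microglial genes the sum was 5.70 to 6.31 against 3.01 to 3.97 FPKM, with 2 of 5 called lower, and for 7 genes of pigment epithelium and choroid 7.60 to 9.13 against 3.21 to 3.95 FPKM, with 1 of 5 called lower. That gene, Ttr, set the pigment epithelium sum, at 6.44 against 1.90 FPKM, and Tyrp1 had 0.316 against 0.540. The 21 endothelial genes summed to 131 to 151 against 125 to 132 FPKM. Most of that sum was Slc2a1 (58.7 against 56.5), Jam2 (30.2 against 25.6) and Tjp1 (19.4 against 21.7), none of them called. It thus says little about the lower genes of the list, whose median log2 difference was -0.29. The 12 mural genes summed to 326 to 375 against 484 to 505 FPKM, a sum made up mostly of Vtn and opposite to the list's median difference. Of the 10 retinal neuron genes tested, 0 were called higher and 2 lower. The share to set beside each of these counts is the 33.8% called over all genes in F0.

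Within groups, the 6 genes of endothelial receptors and junctions (Kdr, Flt1, Tek, Cldn5, Pecam1 and Cdh5) rose and fell together in some libraries, but not in F1 CastxB6. Measured as log2 of count equivalents plus 1 less the group mean, all 6 were below their group mean in F0 C57BL/6J replicate 1 (mean of the 6, -0.30) and in F1 B6xCast replicate 1 (-0.22), and all 6 above it in F0 C57BL/6J replicate 2 (0.25), F0 Cast/EiJ replicate 3 (0.16) and F1 B6xCast replicate 2 (0.14). The 3 F1 CastxB6 libraries were mixed, with 2, 3 and 4 of the 6 genes above the mean. F0 Cast/EiJ replicates 1 and 2 had 1 and 2 above, and F0 C57BL/6J replicate 3 and F1 B6xCast replicate 3 had 5 each. Each of the 6 had a Pearson r with the mean of the other 5 between 0.64 (Cldn5) and 0.84 (Kdr) over 12 libraries, given as a description. Lrp5 followed the mean of the 6 (r = 0.76), whereas Fzd4 (r = -0.22) and Tspan12 (r = 0.18) did not. Vegfa went the other way (r = -0.77), with 0.64 in F0 C57BL/6J replicate 1 and -0.35 in replicate 2, on the count equivalents whose spread is described above. Depth moved with this in part: the 3 libraries with all 6 genes above the mean were the deepest of their groups, at 11888819, 10078766 and 12363291 unique hits, while those with all 6 below were the middle ones of theirs, at 10994604 and 10186553. Its part in the pattern was not tested.

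**Figure D5:**
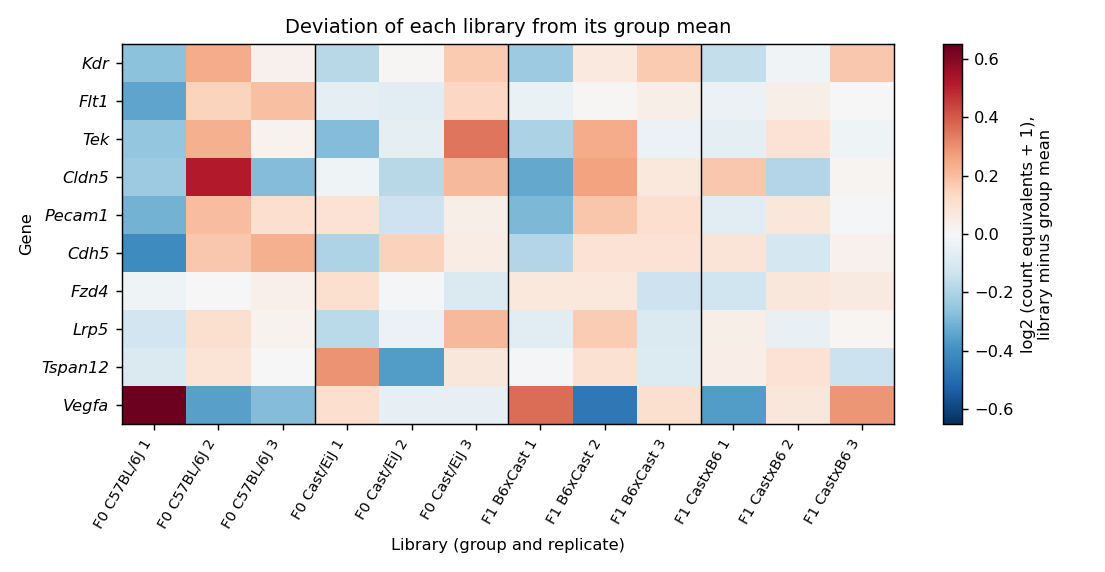
Deviation of each library from its group mean (log2 of count equivalents plus 1, colour scale) for the 10 genes, with the 12 libraries in columns and lines between the 4 genotypes. The top 6 genes share the direction of their deviation in F0 C57BL/6J replicates 1 and 2 and F1 B6xCast replicates 1 and 2, and Vegfa, at the bottom, deviates the other way there.

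The 6 genes outside the members whose pattern was most like that mean, among 11614 autosomal genes averaging 50 count equivalents or more, were Tbc1d9 (r = 0.98), Ptpro (0.98), Cmtm4 (0.97), Fry (0.97), Fars2 (0.97) and Adarb1 (0.97). The 12 libraries share their preparation protocol but differ in depth (8158534 to 12363291 unique hits). Over 14166 autosomal genes the values of r ran from -0.97 to 0.98 with a median of 0.01. The median r was 0.82 over 6 Müller glia genes, 0.56 over 11 mural genes and 0.27 over the 20 other endothelial genes.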

How the data were processed

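Polyadenylated RNA from pools of retinas was sequenced in 12 libraries, which the authors trimmed with Trim Galore 0.2.6, aligned with Bowtie 0.12.9 to transcriptomes of the strain (F0) or of both strains (F1), built on NCBI37 (mm9), and quantified with MMSEQ. The authors deposited, per gene and allele, normalized count equivalents (used here as a signal), the natural log of expression in units roughly equal to FPKM, its posterior SD (used as a score for weights) and counts of unique hits. The deposited model results of the authors' comparisons were not used, apart from the column that marks polymorphic genes, and 36 columns were left out.

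Differences were tested in R 4.3.3 with limma 3.58.1 (trend) on log2(count equivalents + 1), which understates changes of low genes, with Benjamini-Hochberg adjustment and a threshold of 0.05. The F0 fit took 14452 autosomal genes that reached 10 count equivalents in 3 of 6 libraries. The allelic, trans and parent-of-origin fits took 13414 polymorphic genes that also averaged 10 or more allele-specific unique hits over the F1 libraries, with the library as a block (consensus correlation 0.135). Alternatives were other pseudocounts (0.1 and 5), filters (none, or 50), TMM scaling, the deposited log expression with and without weights, edgeR 4.0.16 on unique hits, DESeq2 1.42.0 on rounded count equivalents, a joint fit, each cross alone, blocks and each library left out. The limma fits were tried on simulated data with 200 genes changed 2-fold. The F0 fit recovered 67.5% of these with 6.25% false calls, and the trans fit 77.0% with 7.23%. The allelic fit recovered 88.5% with 3.80% false calls, and the parent-of-origin fit 87.0% with 5.95%. The simulated alleles of a library were independent and were fitted without the library correlation, so the block was not tried.

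The 10 genes and the lists were chosen with earlier results of these data known. Of the VEGF, angiopoietin, endothelial and mural lists, up to 3 genes called in F0 or between alleles were named, those with the largest F0 difference. Called genes of some other lists, such as the Norrin and β-catenin, microglial, Müller glia and retinal neuron lists, were not named. Exceptions are stated or are members that set a list's sum or run against it. The labels do not say that a replicate number marks a shared batch, and same-numbered samples did not all deviate together, so the numbers were not used as pairs.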

Additional observations from a re-analysis of the deposited data

Results flagged for a closer look

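For 4 of the 10 genes the strain difference in F0 and the allelic difference in F1 differed by the test of that difference itself. It was 1.29 ± 0.41 on the log2 scale for Vegfa, 0.56 ± 0.17 for Kdr, -0.91 ± 0.29 for Cldn5 and -0.87 ± 0.22 for Cdh5. The F0 libraries and the F1 libraries also differ in sequencing lanes, whose part was not tested. By Dixon's test no F1 library passed as apart from the other 5 in the allelic difference of any of the 10 genes. The largest gap was that of Vegfa in F1 B6xCast replicate 2, at 0.605 of the range (1.36 against -0.51 to 0.23).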

How the results depend on the processing

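The F0 count of 5 called genes was 7 with edgeR on unique hits, 2 with no filter and 4 to 5 without 1 library. The allelic count of 2 was 4 in F1 B6xCast alone, 1 in F1 CastxB6 alone and 2 to 3 without 1 library. The trans count of 4 was 1 with no filter, 2 with no library block and 1 to 3 without 1 library. The parent-of-origin count was 0 throughout. With the replicate block the counts were 5, 2, 4 and 0, and 6 of 18 same-number pairs of libraries correlated above 0.1 (-0.117 to 0.326, against -0.269 to 0.173 for different numbers), short of the bar for pairing. Among F0 C57BL/6J, F0 Cast/EiJ and F1 B6xCast all same-number pairs were positive, with replicate 1 at 0.283 to 0.326, while F1 CastxB6 did not follow. Of 221 alternatives for the 11 called values, 178 stayed called and 43 were lost. Of 629 for the 29 others, 593 kept direction and side, 9 gained a call and 27 turned sign. F0 Flt1 was -0.074 with weights and -0.12 to 0.15 without 1 library. Allelic Flt1 was -0.011 on log expression, -0.0091 with weights, -0.0068 in CastxB6 alone and -0.012 to 0.041 without 1 library. In CastxB6 alone allelic Vegfa was -0.33, Tek -0.18 and Cdh5 0.10, and Vegfa without 1 library was -0.17 to 0.23. Trans Flt1 was -0.065 with weights, -0.0031 with edgeR and -0.13 to 0.14 without 1 library, and Lrp5 -0.050 to 0.14. For parent of origin, Vegfa was -0.19 on log expression, -0.18 with weights and -0.041 with edgeR, Cldn5 -0.010 with weights, and without 1 library Flt1 was -0.017 to 0.036, Fzd4 -0.043 to 0.17 and Kdr -0.00049 to 0.040. The median spread of the members was 12.5% in FPKM and 14.9% in depth-scaled unique hits. The causes were not tested. Allele-specific depth limits Cldn5 and Lrp5 most, at 58.7 and 62.8 unique hits per library.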

Other observations

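Among other cells of the retina, 1 of 6 Müller glia genes was called higher and 1 lower in F0 Cast/EiJ, with a median log2 difference of 0.18. Of 4 astrocyte genes 0 were higher and 1 lower (median 0.12). For comparison, 33.8% of all genes were called in F0. Of 4 lens genes tested none was called by limma, and the summed lens level varied from 0.819 to 14.1 FPKM among F0 C57BL/6J libraries and from 5.81 to 15.5 among F0 Cast/EiJ libraries.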
